A study of Homo sapiens with 36 samples.

Results

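The cytosolic ribosomal protein genes were examined in mRNA sequencing libraries of the human intestinal tumour lines HT-29 and Caco-2. Members were the rows of the gene count table whose symbol begins with RPL or RPS followed by a number, together with RPLP0, RPLP1, RPLP2 and RPSA. Numbered pseudogenes, the ribosomal S6 kinases and 2 genes of the Y chromosome were left out, which gave 84 of 60591 genes. The study compared 2 agents that stabilise the hypoxia-inducible factor with control cells given neither agent. Each of the 6 groups had 3 biological replicates: Caco-2 or HT-29 cells given DMSO alone (control, 0.5 µl per ml of medium), CoCl2 at 300 µM, or an oxyquinoline derivative (OD) at 5 µM, each for 24 h. Caco-2 cells had been held under differentiation conditions for 21 days and HT-29 cells had not, so line and state of culture cannot be told apart. CoCl2 was dissolved in water and OD in DMSO, and by the study's methods, which describe Caco-2, the CoCl2 medium received DMSO too. Those methods give 0.5% DMSO for the CoCl2 and control media, a higher amount than the 0.5 µl per ml of the sample labels. Each line is a tumour-derived culture, and its replicates are cultures of that line.

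Ribosomal proteins form the protein part of the small (RPS) and large (RPL) subunits of the ribosome, and their mRNAs are among the most abundant of a dividing cell. Nearly all of them belong to the terminal oligopyrimidine (TOP) mRNAs, which begin with a C followed by an uninterrupted run of pyrimidines. Through this run their translation is switched on and off by mTOR signalling and the RNA-binding protein LARP1. A few members are paralogs whose symbols end in L or L1 (RPL3L, RPL7L1, RPL10L, RPL22L1, RPL26L1, RPL39L and RPS27L). Several of these differ from the standard set in tissue use or control, and RPS27L is a known p53 target.

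The start-site letters are shown because they define a TOP mRNA, for members and paralogs described below. Each line gives 30 bases of the sense strand from RefSeq on GRCh38.p14, 10 before the annotated start and 20 from it, with the C at the start and the pyrimidines that follow it in capitals where at least 4 pyrimidines follow.
RPLP0 (chr12:120201092-120201121, minus strand): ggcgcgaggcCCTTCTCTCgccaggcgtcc
RPS6 (chr9:19380217-19380246, minus strand): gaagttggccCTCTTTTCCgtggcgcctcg
RPL41 (chr12:56116623-56116652, plus strand): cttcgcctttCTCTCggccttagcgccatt
RPL39 (chrX:119791611-119791640, minus strand): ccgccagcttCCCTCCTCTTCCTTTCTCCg
RPL36A (chrX:101391001-101391030, plus strand): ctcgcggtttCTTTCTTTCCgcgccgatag
RPS27 (chr1:153990752-153990781, plus strand): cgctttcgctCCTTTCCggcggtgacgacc
RPS27L (chr15:63157458-63157487, minus strand): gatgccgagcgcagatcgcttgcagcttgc
RPL22 (chr1:6199576-6199605, minus strand): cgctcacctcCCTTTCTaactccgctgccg
RPL22L1 (chr3:170870176-170870205, minus strand): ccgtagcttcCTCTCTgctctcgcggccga
RPL26 (chr17:8383174-8383203, minus strand): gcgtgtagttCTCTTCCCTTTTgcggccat
RPL26L1 (chr5:172958719-172958748, plus strand): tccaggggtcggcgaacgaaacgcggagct
RPL7L1 (chr6:42879606-42879635, plus strand): gtgcggcgccgtagctaggagcggacgcca

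A C followed by at least 4 pyrimidines, read on the sense strand from the annotated start, stood at 43 of the 67 members with a start-site entry (64.2%), against 4.04% of all 27305 start sites in the same table. Allowing the run to begin within 5 bases of the annotated start raised the share to 76.1% of members and 21.1% of all start sites. Of the 5 paralogs with an entry, RPL22L1 carried the run (1 of 5), whereas 42 of the 62 other members did (67.7%). Among the pairs shown, RPS27, RPL22 and RPL26 begin with the run, and RPS27L and RPL26L1 do not.

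Total counts ran from 12925719 to 22332639 per library. Epithelial markers were abundant in both lines, with a summed level of 4650 to 7984 CPM (counts scaled to a common library size) in Caco-2 and 5120 to 7074 CPM in HT-29. Enterocyte markers summed to 3514 to 5175 CPM in Caco-2 and 131 to 204 CPM in HT-29, where ALPI, APOA1, APOA4 and FABP2 were under 1 CPM. Fibroblast and endothelial markers summed to at most 31.1 and 12.5 CPM. Of the leukocyte markers, PTPRC, CD3E and CD68 were under 1 CPM in both lines, and LYZ was in the list that summed to 1080 to 1206 CPM in HT-29. VEGFA, EGLN3 and SLC2A1, targets of the hypoxia-inducible factor, were higher upon both agents in both lines (3 of 3 in each comparison with control, but 2 of 3 upon OD in HT-29 with library sizes alone), with a median log2 fold change from 0.42 in HT-29 upon OD to 3.18 in HT-29 upon CoCl2.

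In Caco-2 control cells, the standard members had a median level of 200 RPKM (reads per kilobase of gene, scaled for depth, over 77 genes), with quartiles of 113 and 366 RPKM. RPS12, a small-subunit protein, had the highest level at 1592 ± 2.6 RPKM (SD, n = 3). In HT-29 control cells the median was 147 RPKM. RPL17 was lowest in both lines, at 0.68 ± 0.25 RPKM (SD, n = 3) in Caco-2 and 1.99 ± 0.28 RPKM (SD, n = 3) in HT-29. RPL36A had 1.18 and 2.03 RPKM and RPS10 6.19 and 7.33 RPKM, also at the low end. RPS29, a small-subunit protein, had 24.2 RPKM in Caco-2 and 9.08 RPKM in HT-29. RPL17, RPS10 and RPL36A share exons on the same strand with the readthrough genes RPL17-C18orf32, RPS10-NUDT3 and RPL36A-HNRNPH2, over 32.9%, 31.5% and 8.4% of their exon bases in GENCODE release 44. These 3 readthrough rows held 0 counts in each of the 18 libraries, where a count of 0 allows up to 0.134 to 0.232 CPM. The counting rule behind the table is not given in the sources used here, and its part in these low values was not tested. The values of RPL17, RPS10 and RPL36A are therefore uncertain.

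Numbered pseudogenes of ribosomal protein genes filled 1211 rows, 915 of them with at least 1 count. For 75 of the 84 members, they held under 5% of the summed counts of the gene and its pseudogenes. The share was 50.2% for RPL17, 21.4% for RPS10 and 17.6% for RPL36A.

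The 84 genes together took 6.54%, 6.81% and 6.78% of all counts in the Caco-2 control libraries and 9.72%, 8.46% and 8.70% upon CoCl2. The CoCl2 libraries lay above all controls, with 8.96% ± 0.673 (SD, n = 3) against 6.71% ± 0.149 (SD, n = 3). Upon OD the shares were 8.19%, 6.87% and 6.79%, so that replicate 1 stood apart and the other two lay at the level of the controls. In HT-29, the controls held 5.60%, 5.61% and 5.97%, the CoCl2 libraries 6.62%, 6.34% and 6.57%, and the OD libraries 5.78%, 5.81% and 5.97%. Here CoCl2 again lay above the controls without overlap, while OD overlapped them. The 95% Wilson interval of each share was at most 0.0158 percentage points to either side and covers counting error only. In bulk libraries, fewer cells of a kind and less RNA per cell cannot be told apart, and a share says nothing of the amount per cell.

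**Figure D1:**
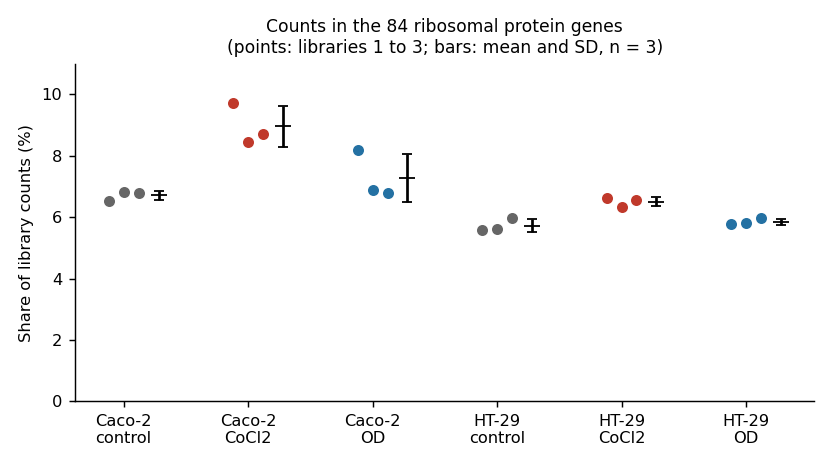
Share of each library's counts (vertical axis, %) that fell in the 84 ribosomal protein genes, by cell line and treatment (horizontal axis). Points are the 3 libraries of a group in replicate order and the bars beside them the mean and SD. The 3 Caco-2 CoCl2 libraries sit between 8.46% and 9.72%, above the controls at 6.54% to 6.81%, and 1 of the 3 Caco-2 OD libraries sits at 8.19%.

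Upon CoCl2 in Caco-2, 76 of the 82 members tested were higher than in the control and 2 were lower (edgeR quasi-likelihood test, FDR under 0.05, Benjamini-Hochberg over all genes tested). The median log2 fold change was 0.74, a fold of 1.67, against -0.03 over all 16034 genes tested. Over all these genes, 31.6% were higher and 33.1% lower. At the thresholds of the study, which add an absolute log2 fold change over 1, 3 members passed (RPL41, RPL30 and RPS27), against 23.4% of all genes. RPL30 (1.01) and RPS27 (1.00) lay at the limit, and 1 member was left with a replicate block and by limma. The change was thus shared by nearly every member and moderate in each. The levels of 75 members were higher in every CoCl2 library than in every control library and those of 3 were lower, against 33.7% and 35.2% of all genes.

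The size of these values rests on the scaling. The trimmed mean of M values (TMM) multiplies each library size by a factor set by the bulk of the genes, and the mean factors of control, CoCl2 and OD were 1.12, 0.894 and 1.00 for Caco-2 but 1.19, 0.770 and 1.09 for HT-29. With library sizes alone, the fold changes of all genes moved by a median of -0.32 in Caco-2 and -0.63 in HT-29 for CoCl2, and of -0.15 and -0.14 for OD. The member median then read 0.42, 0.11, 0.14 and -0.002, so that the direction upon OD in HT-29 was lost. The member median minus the median of all genes was nearly the same under both scalings, at 0.77 and 0.80 for CoCl2 (Caco-2 first) and 0.29 and 0.13 for OD under each. Directions below are relative to the bulk of the genes, unless said otherwise. With library sizes alone, 71 Caco-2 members were higher and 4 lower upon CoCl2, against 18% and 50% of all genes. Upon OD 13 of 82 were higher and 6 lower, against 17% and 35.3%, so that the share higher was near that of all genes. The HT-29 counts were 48 higher and 13 lower upon CoCl2, against 20.9% and 64.3% of all genes. Upon OD they were 21 and 21 of 81, against 27.4% and 42.8%, with the share higher again near that of all genes. The share of counts from mitochondrial genes also moved with treatment, from 6.52% in Caco-2 controls to 5.22% upon CoCl2 and 4.63% upon OD, and from 7.17% in HT-29 controls to 8.09% and 6.13%. Its part in the member values was not tested.

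Both subunits moved alike in Caco-2 upon CoCl2. Of the 46 large-subunit members without the paralogs, 45 were higher, with a median log2 fold change of 0.73, and of the 31 small-subunit members 30 were higher, with a median of 0.79. RPL39 was among those that did not pass, at 0.26 ± 0.16 (SE), and no standard member was lower (0 of 77).

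**Figure D2:**
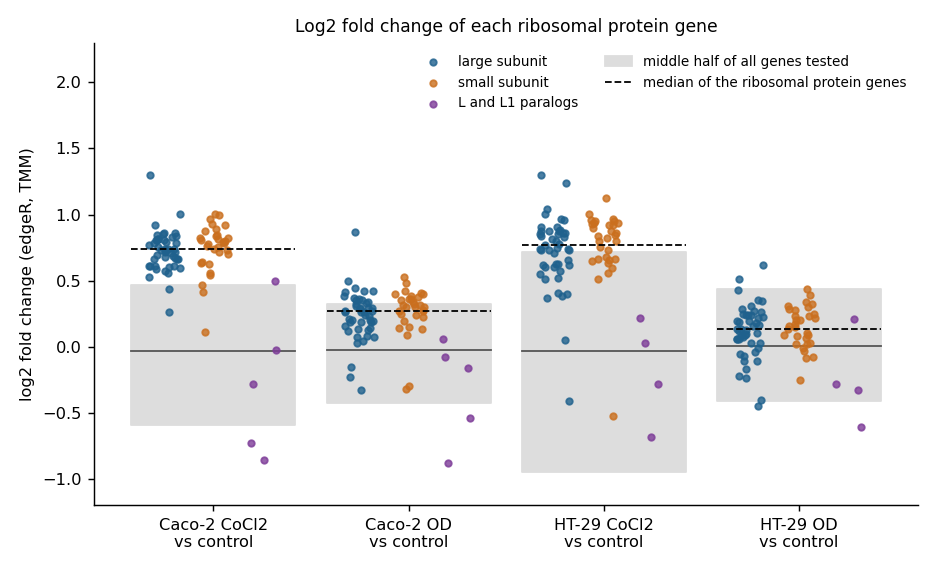
Log2 fold change against control (vertical axis, edgeR with TMM scaling) of each ribosomal protein gene tested in the 4 comparisons (horizontal axis), coloured by subunit or as a paralog. The grey band spans the quartiles of all genes tested with their median as a line, and the dashed line is the median of the ribosomal protein genes, at 0.74, 0.27, 0.77 and 0.13. The median of the paralogs lies below 0 in all 4 comparisons, at -0.28, -0.16, -0.13 and -0.30.

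The acidic stalk of the large subunit, which recruits the elongation factors, is built on RPLP0. Its level was 1215, 1288 and 1230 CPM in Caco-2 controls, 2226, 1938 and 2066 CPM upon CoCl2, and 1690, 1487 and 1511 CPM upon OD. All 3 libraries of either agent were above all controls, and CoCl2 was above OD. The log2 fold change was 0.74 ± 0.08 (SE, adjusted p = 8.38e-09, edgeR) upon CoCl2 and 0.33 ± 0.08 (SE, adjusted p = 0.000899, edgeR) upon OD. Its stalk partners RPLP1 and RPLP2 were higher by 0.60 and 0.67 upon CoCl2. Upon OD, RPLP1 was higher by 0.29, and RPLP2 at 0.19 did not pass (adjusted p = 0.0677, edgeR).

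RPL5 and RPL11 bind the 5S rRNA and, outside the ribosome, hold the p53 ligase MDM2. In Caco-2 they were higher upon CoCl2 by 0.69 ± 0.09 (SE) and 0.67 ± 0.09 (SE). Upon OD, RPL5 was higher by 0.29 ± 0.09 (SE), while RPL11 had 0.18 ± 0.09 (SE) and did not pass.

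RPS6, the small-subunit protein phosphorylated by S6 kinase, had 1423, 1414 and 1435 CPM in Caco-2 controls, 2529, 2153 and 2274 CPM upon CoCl2, and 2041, 1553 and 1453 CPM upon OD. The controls lay within a narrow range, and the highest OD library was replicate 1, as in the summed share. The log2 fold change was 0.70 ± 0.10 (SE) upon CoCl2 and 0.24 ± 0.10 (SE) upon OD. RPS27A, made as a fusion with ubiquitin, was higher by 0.92 and 0.39. RPS3, which lines the mRNA entry channel, was higher by 0.75 and 0.31, and RPS19, the gene most often mutated in Diamond-Blackfan anaemia, by 0.76 and 0.30.

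RPL41, the smallest protein of the ribosome, had the highest log2 fold change of all members in Caco-2. Its level was 68.9, 65.9 and 75.1 CPM in controls, 213, 165 and 139 CPM upon CoCl2, and 226, 86.7 and 70.3 CPM upon OD. CoCl2 lay above the controls in every library, whereas OD reached above CoCl2 in replicate 1, lay slightly above the controls in replicate 2 and within their range in replicate 3. The log2 fold change was 1.30 ± 0.25 (SE, adjusted p = 6.38e-05, edgeR) upon CoCl2 and 0.87 ± 0.25 (SE, adjusted p = 0.00506, edgeR) upon OD. Without OD replicate 1, the OD value was 0.17 and did not pass (adjusted p = 0.261, edgeR). RPL30 (1.01), RPS27 (1.00), RPS25 (0.99) and RPS20 (0.96) followed RPL41 upon CoCl2. The lowest values past the test among standard members with at least 100 counts were those of RPS26 (0.41), RPL22 (0.43) and RPS10 (0.46).

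**Figure D3:**
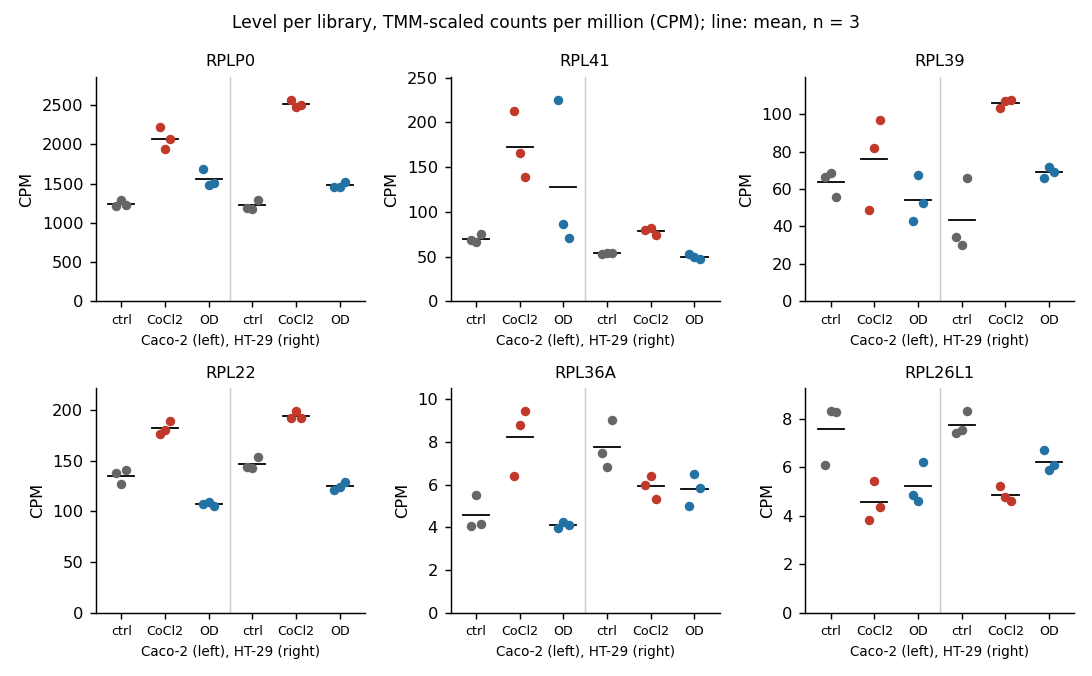
Level in each library (vertical axis, CPM scaled by TMM within each line, each axis from 0) of 6 members, by treatment, with Caco-2 left and HT-29 right of the grey line and the mean of 3 libraries as a black line. Levels are not on a common scale between the lines. RPLP0 is above control upon both agents in both lines, RPL41 upon OD is high in 1 Caco-2 library (226 CPM), RPL22 is above control upon CoCl2 and below it upon OD, and RPL26L1 is below control upon CoCl2.

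Upon OD in Caco-2, 51 of 82 members were higher and 2 were lower (edgeR), with a median log2 fold change of 0.27, a fold of 1.21, against -0.02 over all genes. Among all genes tested, 25.7% were higher and 24.7% lower. No member passed with the added limit of 1 on the log2 scale (0 of 82 in edgeR and 0 in DESeq2), against 11.7% of all genes, while 59 had an unadjusted p under 0.05. The levels of 51 members were above all controls in all 3 OD libraries, against 29.6% of all genes, and 29 members overlapped. RPS27 (0.53), RPL38 (0.50), RPS25 (0.48) and RPL21 (0.45) had the highest values after RPL41. Replicate 1 was the highest OD library for each, with RPS25 at 1808, 1045 and 909 CPM and RPL21 at 871, 546 and 500 CPM. RPS25 overlapped the controls, and RPS27, RPL38 and RPL21 did not. Much of the count of higher members also rested on replicate 1. Without that library, chosen for this after the values were seen, 25 members were higher and 4 lower in edgeR, against 24% and 22.6% of all genes in that fit, and the member median was 0.15. The median log2 deviation of the members from the control mean was 0.45 in replicate 1 and 0.17 and 0.11 in the others.

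RPL22, a large-subunit protein that also binds other RNAs, was the 1 standard member lower upon OD in Caco-2. It had 137, 127 and 141 CPM in Caco-2 controls, 176, 181 and 190 CPM upon CoCl2, and 107, 109 and 106 CPM upon OD. The 3 groups did not overlap, with OD below and CoCl2 above the controls. The log2 fold changes were -0.33 ± 0.07 (SE, adjusted p = 0.000538, edgeR) upon OD and 0.43 ± 0.07 (SE, adjusted p = 1.1e-05, edgeR) upon CoCl2. HT-29 cells had the same order, with 144, 143 and 154 CPM in controls, 192, 199 and 192 CPM upon CoCl2, and 121, 124 and 129 CPM upon OD. There, the value was -0.24 ± 0.05 (SE) upon OD and 0.41 ± 0.05 (SE) upon CoCl2. With library sizes alone, the CoCl2 value in HT-29 turned to -0.23.

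Set directly against OD, CoCl2 gave higher levels of 76 of 82 members in Caco-2 and lower levels of none (0 of 82, edgeR), with a median log2 fold change of 0.47 against -0.01 over all genes. Of all genes tested, 24.4% were higher and 25.2% lower. RPL36A was the 1 member past the limit of 1, at 1.01 ± 0.18 (SE), against 11.7% of all genes. RPL22 (0.76), RPS10 (0.76), RPL30 (0.59), RPS15 (0.57) and RPL6 (0.57) had the next highest values. Without OD replicate 1 the median was 0.59. Scaled by library size alone it was 0.31, with 68 members higher and 1 lower, against 15.6% and 36.2% of all genes.

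In HT-29 upon CoCl2, 75 of 81 members were higher and 4 lower (edgeR), with a median log2 fold change of 0.77, a fold of 1.71, against -0.03 over all 15812 genes tested. Here 40.7% of all genes were higher and 42.2% lower. The limit of 1 was passed by 6 members (among them RPL10, RPL39, RPLP0, RPL18 and RPS19), against 41.3% of all genes, so that the members were called at a lower rate than genes at large. The levels of 75 members were above all controls and those of 4 below, against 40.5% and 42.6% of all genes. The median was 0.74 for the large and 0.84 for the small subunit.

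RPL10, which shapes the peptidyl transferase centre and joins the large subunit late, had 1099, 1061 and 1389 CPM in HT-29 controls, 2953, 2839 and 2951 CPM upon CoCl2, and 1686, 1657 and 1713 CPM upon OD. Both agents lay above all controls and CoCl2 above OD. The log2 fold change was 1.30 ± 0.06 (SE, adjusted p = 1.75e-16, edgeR) upon CoCl2 and 0.51 ± 0.06 (SE, adjusted p = 6.19e-08, edgeR) upon OD. RPLP0 was higher by 1.04 and 0.27.

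RPL39, a small protein of the exit tunnel, had 34.4, 30.3 and 66 CPM in HT-29 controls, 103, 107 and 108 CPM upon CoCl2, and 66, 71.6 and 69 CPM upon OD. Control replicate 3 stood apart from the other two controls and reached the OD level. The log2 fold change was 1.24 ± 0.15 (SE) upon CoCl2 and 0.62 ± 0.15 (SE) upon OD, and 1.71 and 1.09 without replicate 3 of every group. In Caco-2, RPL39 had 66.7, 68.6 and 55.9 CPM in controls, 48.8, 82.1 and 97.1 CPM upon CoCl2, and 42.8, 67.4 and 52.8 CPM upon OD. These 3 groups overlapped.

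Upon OD in HT-29, 45 of 81 members were higher and 8 lower (edgeR), with a median log2 fold change of 0.13, a fold of 1.10, against 0.01 over all genes. The shares of all genes were 34.7% higher and 34.0% lower. No member passed the limit of 1 (0 of 81 in edgeR and 0 in DESeq2), against 17.1% of all genes, while 55 had an unadjusted p under 0.05. The levels of 46 members were above all controls and those of 8 below, against 35.6% and 35.5% of all genes. RPL39, RPL10, RPL23A (0.43) and RPS29 (0.39) were among the highest. RPL7L1, RPL36A, RPL6 (-0.40), RPL26L1 and RPS27L (-0.28) were lowest. RPL6, a large-subunit protein, had 517, 503 and 523 CPM in controls and 398, 384 and 386 CPM upon OD, and 671, 633 and 686 CPM upon CoCl2. RPS6 had 1399, 1402 and 1366 CPM in controls and 1446, 1391 and 1394 CPM upon OD, a log2 fold change of 0.02 ± 0.04 (SE) that did not pass.

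CoCl2 exceeded OD for 76 of 81 members in HT-29, and 3 members were lower (edgeR), among them RPL22L1 and RPL26L1. The median log2 fold change was 0.64 against -0.07 over all genes, of which 37.1% were higher and 40.6% lower. No member passed the limit of 1 (0 of 81 in edgeR, with 79 at an unadjusted p under 0.05, and 0 in DESeq2), against 29.9% of all genes. RPS20 (0.83), RPL13A (0.83), RPL10 (0.79), RPL6 (0.77) and RPLP0 (0.77) were highest. The median was 0.14 by library size alone, against -0.56 over all genes, with 49 members higher and 5 lower, against 17.9% and 62.9% of all genes.

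The paralogs were set beside their standard counterparts. RPL26L1 had 6.11, 8.32 and 8.31 CPM in Caco-2 controls, 3.83, 5.45 and 4.38 CPM upon CoCl2, and 4.84, 4.62 and 6.21 CPM upon OD. In HT-29 it had 7.42, 7.55 and 8.34 CPM in controls, 5.23, 4.77 and 4.61 CPM upon CoCl2, and 6.73, 5.88 and 6.12 CPM upon OD. It was lower in all 4 comparisons, without overlap except upon OD in Caco-2. For CoCl2, its log2 fold change was -0.73 ± 0.19 (SE) in Caco-2 cells and -0.68 ± 0.13 (SE) in HT-29 cells. For OD, it was -0.54 ± 0.18 (SE) and -0.32 ± 0.11 (SE). RPL26, its standard counterpart, was higher upon CoCl2 by 0.68 and 0.51 in the lines and did not pass upon OD (0.21 and -0.11). With library sizes alone, the CoCl2 value of RPL26 in HT-29 was -0.12 and did not pass.

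RPL7L1, which acts in the assembly of the large subunit, was lower upon CoCl2 by -0.28 ± 0.08 (SE) in Caco-2 and -0.28 ± 0.05 (SE) in HT-29. Upon OD it had -0.16 ± 0.08 (SE) in Caco-2, which did not pass, and was lower by -0.60 ± 0.05 (SE) in HT-29, where its levels fell from 117, 115 and 119 CPM to 78, 78.1 and 74 CPM. RPL7 was higher upon CoCl2 by 0.79 and 0.62. RPS27L had 43.9, 46.5 and 47.8 CPM in Caco-2 controls and 42.2, 42.9 and 50.6 CPM upon CoCl2, a log2 fold change of -0.02 ± 0.10 (SE) that did not pass. RPS27, by contrast, went from 939, 969 and 1011 CPM to 2137, 1801 and 1918 CPM. In HT-29, RPS27L was higher by 0.21 upon CoCl2 and lower by -0.28 upon OD, and the former turned to -0.42 with library sizes alone.

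RPL22L1, which can take the place of RPL22, was the paralog that begins with the pyrimidine run. It was higher upon CoCl2 in Caco-2 by 0.49 ± 0.10 (SE) and had 0.03 ± 0.08 (SE) in HT-29, where it was higher upon OD by 0.21 ± 0.07 (SE). RPL22 and RPL22L1 thus differed upon OD in HT-29, with log2 fold changes of -0.24 and 0.21, a difference that was not itself tested. RPL39L held 4 to 22 counts in each Caco-2 library and 0 or 1 in each HT-29 library, and its Caco-2 values of -0.86 and -0.88 did not pass. RPL3L held at most 10 counts and RPL10L 0 or 1 in any library, and neither was tested.

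The difference between the lines was tested as an interaction over all 18 libraries. For CoCl2, 5 of 82 members had a higher log2 fold change in HT-29 and 14 a lower one, against 21.1% and 28.6% of all 17921 genes. For OD, 1 was higher and 16 lower, against 20.9% and 22.0%. The limit of 1 was passed by 1 member for CoCl2 (21.6% of all genes) and by none for OD (0 of 82 in edgeR, with 23 at an unadjusted p under 0.05, and 0 in DESeq2, against 15.2% of all genes). The median difference was -0.07 for CoCl2, against -0.13 over all genes, and -0.14 for OD, against 0.01. For CoCl2 63 members did not pass, and for OD 65. Scaling by library size alone turned the CoCl2 counts to 1 higher and 44 lower, against 14.9% and 36.6% of all genes, and the OD counts to 2 and 12, against 22.1% and 20.5%.

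RPL36A, a large-subunit protein, was the member past the limit for CoCl2. It had 4.07, 5.5 and 4.15 CPM in Caco-2 controls and 6.42, 8.79 and 9.47 CPM upon CoCl2, against 7.49, 6.84 and 9.05 CPM in HT-29 controls and 5.97, 6.43 and 5.35 CPM upon CoCl2. The groups did not overlap in either line, and the direction was opposite. RPL36A changed by 0.86 ± 0.18 (SE) on the log2 scale in Caco-2 cells and -0.41 ± 0.14 (SE) in HT-29 cells, with a difference of -1.38 ± 0.23 (SE, adjusted p = 4.35e-06, edgeR). These levels rest on 60 to 241 counts per library. Without replicate 3 of every group the HT-29 values were -0.20 upon CoCl2 and -0.32 upon OD, neither past the test (adjusted p = 0.267 and 0.0911, edgeR), and the difference between the lines was -0.99. RPL36AL, a second gene for the same protein of the large subunit that the symbol rule leaves out, was higher upon CoCl2 in both lines, by 0.66 and 1.26.

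Across the 77 standard members tested in both lines, the log2 fold changes upon CoCl2 had a Pearson correlation of 0.21 and a Spearman correlation of 0.12 between the lines, and those upon OD 0.26 and 0.21. With the paralogs included (81 genes), the Pearson values were 0.57 and 0.40. The genes are not independent replicates, and the lines share no library.

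**Figure D4:**
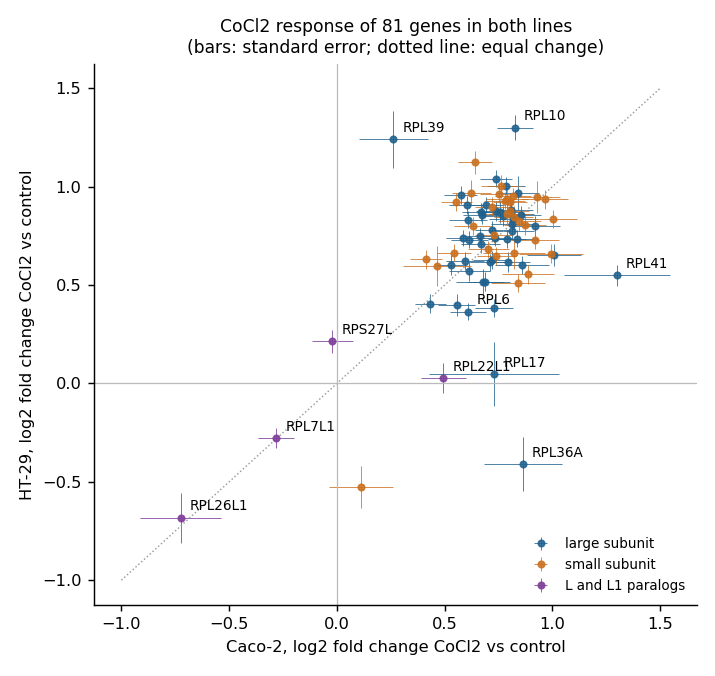
Log2 fold change upon CoCl2 in Caco-2 (horizontal axis) and in HT-29 (vertical axis) of the 81 ribosomal protein genes tested in both lines, with standard errors as bars and the line of equal change dotted. Most standard members form 1 cluster with both values above 0. RPL39 lies above it, RPL41 to its right, RPL36A below 0 in HT-29, and RPL26L1 and RPL7L1 below 0 in both lines.

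The responses of the standard members were also grouped by their start-site letters. Upon CoCl2, the 42 members with the run had median log2 fold changes of 0.76 for Caco-2 cells and 0.83 for HT-29 cells, and the 20 with other letters at the annotated start 0.73 and 0.73. Upon OD the medians were 0.28 and 0.24 in Caco-2 cells, against 0.19 and 0.11 in HT-29 cells. The 15 standard members without a start-site entry had medians of 0.77 in Caco-2 and 0.85 in HT-29 upon CoCl2. Upon OD their medians were 0.34 and 0.16. Within 5 bases of the annotated start, 50 of the 62 standard members with an entry carried the run. The 20 with other letters thus include some with the run nearby. These are descriptions, with no test of the differences.

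Other genes of the translation apparatus were read from lists, and no list was tested against all genes. Of all genes tested, 31.6% were higher and 33.1% lower in Caco-2 upon CoCl2, and 25.7% and 24.7% upon OD. For HT-29 these shares were 40.7% and 42.2% upon CoCl2, and 34.7% and 34.0% upon OD. Of 3 ribosomal protein genes outside the symbol rule, among them FAU and RPL36AL, 3 were higher upon CoCl2 in each line. RPL36AL passed the limit of 1 in HT-29, at 1.26. Of 19 other TOP mRNAs tested, 19 were higher in Caco-2 upon CoCl2 (median 0.68), 13 upon OD (0.29), 18 in HT-29 upon CoCl2 (0.73) and 9 upon OD (0.08). Lower calls upon OD numbered 1 among Caco-2 cells against 3 for HT-29 cells, and upon CoCl2 they numbered 0 of 19 for either line. Among them were the elongation factors EEF1A1 (0.91 and 1.11 upon CoCl2 in Caco-2 and HT-29) and EEF2 (0.75 and 1.19), and TPT1 (0.70 and 1.27). With library sizes alone, the medians were 0.35, 0.13, 0.10 and -0.05. The last, for HT-29 upon OD, thus turned below 0, where the member median was near 0 (-0.002). Higher and lower counts of the 19 TOP mRNAs were then 19 and 0, 7 and 1, 9 and 6, and 6 and 8. Over all genes the shares were then 18% and 50%, 17% and 35.3%, 20.9% and 64.3%, and 27.4% and 42.8%.

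Factors that build ribosomes were read in the same way. Of 40 biogenesis and assembly factors, 19 were higher and 7 lower in Caco-2 upon CoCl2 (median 0.18), and 8 and 15 upon OD (-0.09). In HT-29, 12 were higher and 25 lower upon CoCl2 (-0.51), and 1 was higher and 35 were lower upon OD (-0.56). RRS1, which places the 5S particle, had log2 fold changes of -0.56, -1.16, -1.78 and -0.83 in these 4 comparisons, and UTP20, of the small-subunit processome, -0.65, -0.72, -1.40 and -1.41. FBL, the rRNA methylase fibrillarin, was higher by 1.31 and 1.15 in Caco-2 and had 0.11 and -0.29 in HT-29. With library sizes alone, the Caco-2 CoCl2 median of the list turned to -0.14, and the HT-29 medians were -1.14 and -0.70. The difference between the lines was lower in HT-29 for 30 of 40 factors for CoCl2 and 27 for OD. Over all genes, 28.6% and 22.0% were lower.

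Of 12 RNA polymerase I and rRNA transcription genes found of 15 listed, 6 were higher and 3 lower in Caco-2 upon CoCl2. All genes there had 31.6% higher and 33.1% lower. Upon OD in Caco-2, 3 were higher and 3 lower, near the shares of all genes (25.7% and 24.7%). In HT-29, 4 were higher and 7 lower upon CoCl2 and 2 and 7 upon OD. All genes there had 40.7% and 42.2% upon CoCl2 and 34.7% and 34.0% upon OD. UBTF, which opens the rRNA genes, had -1.31 upon CoCl2 and 0.08 upon OD in Caco-2 cells, against -2.85 and -1.56 in HT-29 cells. Of 12 chaperones and importers of ribosomal proteins, 6 were higher and 2 lower, 5 and 4, 8 and 4, and 2 and 8 in the 4 comparisons. The shares of all genes just given apply to this list and the next. The medians were 0.30, 0.04, 0.21 and -0.32, of which the first 3 turned negative with library sizes alone (-0.03, -0.11 and -0.42). Of 9 genes that control TOP mRNAs or S6, 2 were higher and 4 lower, 1 and 1, 5 and 3, and 2 and 4, and LARP1 had 0.01, 0.04, 0.25 and -0.03. MYC, an activator of ribosome genes, was higher in Caco-2 by 1.23 and 0.28 and lower in HT-29 by -1.87 and -1.12.

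**Figure D5:**
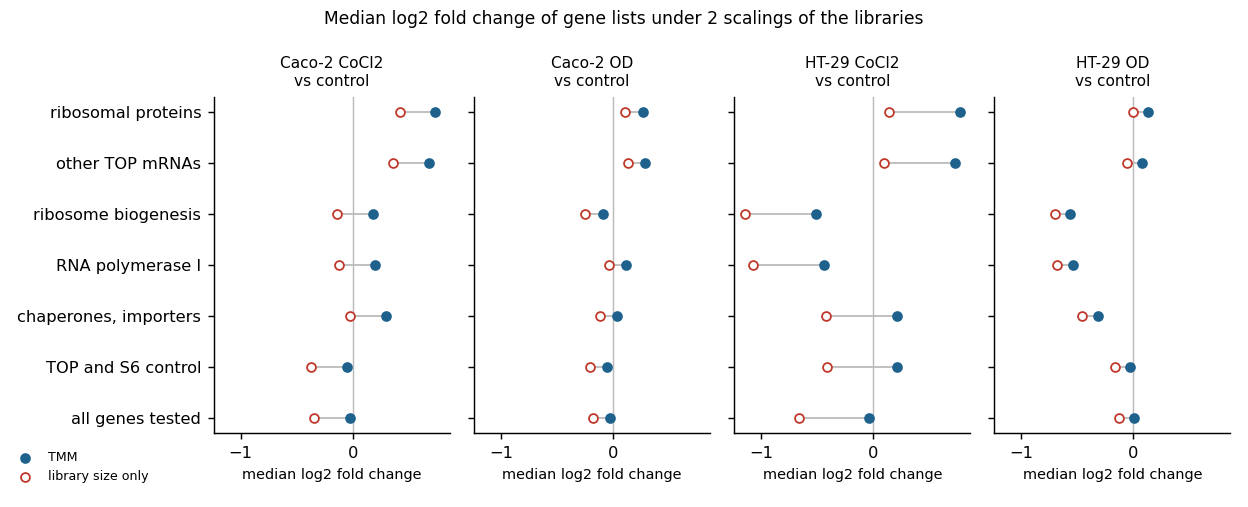
Median log2 fold change (horizontal axis) of the ribosomal protein genes, 5 other lists and all genes tested (vertical axis) in the 4 comparisons with control, with TMM scaling (filled) and with library sizes alone (open). Under either scaling the ribosomal proteins and the other TOP mRNAs lie right of all genes tested, and in HT-29 the biogenesis list lies below all genes tested.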

How the data were processed

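Poly(A) RNA of 18 libraries was sequenced by the authors as stranded single-end reads. Adapters were trimmed with cutadapt 2.10 and reads mapped to GRCh38.p13 with STAR 2.7.5b (submitters' processing notes and the study's methods). The counts deposited by the authors are whole reads per gene of a GENCODE annotation, and the counting tool and its use of strand are not given in the sources used here. The authors also deposited log2(RPKM + 1) values, scaled within each line, which served for levels between genes and for limma. Lengths behind these RPKM are the authors' own. The miRNA files were not used.

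Counts were tested with edgeR 4.0.16 (R 4.3.3) by the quasi-likelihood F test, two-sided, with TMM scaling, filterByExpr and 1 coefficient per group. Each line was fitted over its 9 libraries, and the differences between lines over all 18. Of the 84 members, 82 (Caco-2) and 81 (HT-29) passed the filter on low counts. Benjamini-Hochberg adjustment ran over all genes tested, and calls needed an adjusted p under 0.05 (FDR), with or without an absolute log2 fold change over 1. Errors are SD over 3 replicates or SE. The SE of a log2 fold change was its absolute value divided by the square root of the F statistic. CPM was scaled by TMM within each line, so CPM levels are not compared between lines. Alternatives were DESeq2 1.42.0, limma 3.58.1 on the deposited log2 values with a pseudocount of 1, other scalings, no filter, pseudogene counts added, a replicate block and leaving out replicates. The test was tried on simulated data.

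Named members were those fixed for their role, the paralogs with their standard genes, the 5 highest and 5 lowest per comparison (3 and 3 per line difference) with at least 100 counts on average, and all called members where at most 10 were called. Some members and list genes that meet these rules are not reported here. RPL36AL, RPS29 and RPS12 were named after their values were seen. The members and lists were chosen with earlier results of these data known. Start sites came from RefSeq on GRCh38.p14, and gene overlaps from GENCODE release 44.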

Additional observations from a re-analysis of the deposited data

Results flagged for a closer look

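Among the members whose response differed between Caco-2 and HT-29 in the interaction test (edgeR, HT-29 minus Caco-2 on the log2 scale), 6 are given here by the size of the difference. For CoCl2, the difference was 0.88 ± 0.26 (SE) for RPL39 (adjusted p = 0.00522, edgeR) and 0.36 ± 0.11 (SE) for RPL10 (adjusted p = 0.00772, edgeR). It was -1.38 ± 0.23 (SE) for RPL36A (adjusted p = 4.35e-06, edgeR) and -0.86 ± 0.30 (SE) for RPL41 (adjusted p = 0.0177, edgeR).

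For OD, the difference was 0.84 ± 0.26 (SE) for RPL39 (adjusted p = 0.00955, edgeR), -0.99 ± 0.30 (SE) for RPL41 (adjusted p = 0.00801, edgeR), -0.52 ± 0.15 (SE) for RPL21 (adjusted p = 0.00502, edgeR) and -0.47 ± 0.18 (SE) for RPS25 (adjusted p = 0.0316, edgeR). In Caco-2 OD replicate 1, RPL41 stood at 226 CPM beside 86.7 and 70.3 CPM, and RPS25 at 1808 CPM beside 1045 and 909 CPM. Control replicate 3 of HT-29 had 66 CPM of RPL39 beside 34.4 and 30.3 CPM. The part of these libraries in the differences between lines was tested only by leaving out each replicate number in turn.

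RPL36A passed in every setting tried, and without each replicate number in turn the RPL36A difference ran from -1.64 to -0.99. For CoCl2, RPL10 did not pass with library sizes alone (adjusted p = 0.211, edgeR), nor without replicate 2 (0.365). RPL39 did not pass without replicate 2 for CoCl2 (adjusted p = 0.0796, edgeR) or OD (0.0620). By DESeq2, RPL41 did not pass for either agent (adjusted p = 0.190 and 0.0928), nor did RPL39, RPL21 and RPS25 for OD (0.0706, 0.0568 and 0.186). RPL41 also did not pass for CoCl2 without replicate 2 (adjusted p = 0.0667, edgeR), nor RPS25 for OD without replicate 1 or 2 (0.0972 and 0.116).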

How the results depend on the processing

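Comparisons are given in the order CoCl2 and OD against control in Caco-2, the same in HT-29, CoCl2 against OD in Caco-2 and HT-29, and the line differences for CoCl2 and OD. With no limit on the fold change, 78, 53, 79, 53, 76, 79, 19 and 17 members passed. Library sizes alone moved the first 6 member medians to 0.42, 0.11, 0.14, -0.0020, 0.31 and 0.14 and the CoCl2 line difference to -0.28. Members higher and lower were then 71 and 4, 13 and 6, 48 and 13, and 21 and 21 against control, and 3 were called in HT-29 upon CoCl2, 0 in Caco-2 for CoCl2 against OD and 2 for the CoCl2 line difference. Without the low-count filter, calls were 3 in HT-29 upon CoCl2 and 0 in Caco-2 for CoCl2 against OD, and the HT-29 medians 0.72 and, against OD, 0.59. By limma, 1 member was called in Caco-2 upon CoCl2, 22 were higher upon OD, 3 were called in HT-29 upon CoCl2, and the HT-29 medians were 0.68 and 0.11. Pseudogene counts added to their parents gave 1 call in Caco-2 upon OD, 0 for CoCl2 against OD, 2 for the CoCl2 and 1 for the OD line difference. DESeq2 gave 2 calls for the CoCl2 line difference, and it and its size factors a median of 0.66 for CoCl2 against OD in HT-29. These are the settings that moved a summary, and the cause was not tested beyond their construction.

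Leaving out replicates, including Caco-2 OD or CoCl2 replicate 1 alone, which were chosen after seeing the data, gave these ranges. Calls ran from 1 to 6, 0 to 2, 4 to 11, 0 to 1, 0 to 1, 0, 1 to 2 and 0 to 2. In Caco-2 upon OD, 25 to 56 members were higher and 1 to 4 lower, and 5 to 9 were lower in HT-29 upon OD. Medians ran from 0.75 to 0.80 in HT-29 upon CoCl2, 0.10 to 0.16 upon OD, and 0.41 to 0.59 in Caco-2 for CoCl2 against OD. The replicate numbers did not pair the samples (correlations of -0.055 to 0.068 in Caco-2 and -0.037 to 0.025 in HT-29, 9 pairs each). The replicate block left 1 call in Caco-2 upon CoCl2 and moved no other summary beyond its limit.

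Values that turned sign with library sizes alone were -0.060 for RPL39 in Caco-2 upon CoCl2. Upon OD in Caco-2 they were -0.018 for RPS26, -0.10 for RPL22L1 and -0.070 for RPL3. In HT-29 upon CoCl2 they were -0.42 for RPS27L, -0.12 for RPL5, -0.0024 for RPS26, -0.61 for RPL22L1, -0.016 for RPL7, -0.23 for RPL22 and -0.12 for RPL26. In HT-29 upon OD they were -0.080 for RPL11, -0.11 for RPS6, -0.071 for RPS27A, -0.051 for RPS26, -0.00074 for RPS4X, -0.078 for RPL7 and -0.050 for RPS27. Against OD in HT-29 they were -0.17 for RPL7L1, -0.047 for RPL10A and -0.014 for RPL28. RPL22L1 in HT-29 upon CoCl2 was -0.028 without the filter and -0.067 by limma, and RPS6 upon OD -0.0014 by limma. Over the replicates left out, RPS27L ran from -0.085 to 0.031 and RPL39 from -0.041 to 0.53 in Caco-2 upon CoCl2. Upon OD, RPL22L1 ran from -0.035 to 0.14, RPS27L from -0.21 to 0.021 and RPL26 from -0.065 to 0.34. In HT-29, RPL22L1 ran from -0.049 to 0.12 upon CoCl2, and RPL5 from -0.064 to 0.0022 and RPL26 from -0.18 to 0.0041 upon OD.

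With 3 replicates a group, errors were wide for members at few counts such as RPL39L and RPL17, and also for RPL41, and RPL3L and RPL10L were too low to test at this depth. The summed shares and the fold changes are relative to the rest of each library, and no measure of RNA per cell was used.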
